A study of Mus musculus with 24 samples.

Results

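The genes that write, copy, read and erase DNA methylation were followed in liver-resident invariant natural killer T (LiNKT) cells of NOD mice. In these cells, regions less methylated in αGalCer/CD1d-NP-treated than in untreated mice outnumbered those more methylated. The 9 genes were chosen by name out of the 55401 gene IDs of the count tables: Dnmt1, Uhrf1, Dnmt3a and Dnmt3b on the writing side, Tet1, Tet2, Tet3 and Tdg on the erasing side, and the reader Mbd2. Each gene was followed in 3 data types, namely the RNA of single cells (SmartSeq2), the differentially methylated regions (DMRs) of whole genome bisulfite sequencing, and the Tn5 insertions of a single-nucleus multiome.

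All cells were sorted from liver as cells that bind αGalCer/CD1d tetramers. The particles display CD1d molecules with αGalCer, a glycolipid that strongly activates the invariant TCR. Treated mice received 20 µg of particle-bound protein intravenously, in 2 doses per week for 5 weeks, NOD being a strain prone to spontaneous autoimmune diabetes. The controls are titled CTL, and the methods of each data type used here call them untreated. The methods also state that control mice in general were untreated or given Cys-NPs with as much iron. SmartSeq2 compared cells of 3 untreated and 3 treated male mice of 13 to 15 weeks. The multiome pooled nuclei of 5 untreated and 4 treated male mice of the same ages per the methods, although elsewhere the study describes these mice as younger and the controls as given vehicle. The bisulfite data came from 7 untreated female mice of 17 weeks and 4 treated mice of 16 weeks whose sex is not given in the sources used here, so that treatment, age and possibly sex cannot be told apart in them. For each of these 3 data types the files hold 1 sample per group, so that no test between groups was possible here and none is reported. The study describes 3 bisulfite replicates per group, which the files give as 1 value per group.

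DNA methylation at CpG sites is kept through cell division by the maintenance methyltransferase Dnmt1, which its partner Uhrf1 directs to the half-methylated sites left by replication, while Dnmt3a and Dnmt3b add methyl groups to unmethylated CpGs. Methylation is lost passively when maintenance lags behind replication, or actively when the Tet dioxygenases oxidise methylcytosine and the DNA glycosylase Tdg cuts out the oxidised base, which base excision repair then replaces. Mbd2 binds methylated CpGs and brings the NuRD repressor complex to them. In T cells, Tet2 and Tet3 are known for shaping lineage and cytokine loci, and loss of both expands invariant natural killer T cells.

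Among the 9 genes, Tet2 had 3 hypo-methylated regions in or near it, more than any other. Their sequence is given here because they carry the loss of methylation described below. The plus strand of GRCm38.p6 is shown 5′ to 3′, with CpGs in capitals. Tet2 lies on the minus strand of chromosome 3 (chr3:133463679-133545139, ENSMUSG00000040943). The region in intron 1 (chr3:133515129-133515622) is shown over the 300 bases that hold most of its CpGs, chr3:133515175-133515474. The region in intron 2 (chr3:133496709-133497194) is shown likewise over chr3:133496867-133497166. The region beyond the 3′ end of the gene (chr3:133437028-133437281, 254 bases) is shown whole.
Tet2 intron 1: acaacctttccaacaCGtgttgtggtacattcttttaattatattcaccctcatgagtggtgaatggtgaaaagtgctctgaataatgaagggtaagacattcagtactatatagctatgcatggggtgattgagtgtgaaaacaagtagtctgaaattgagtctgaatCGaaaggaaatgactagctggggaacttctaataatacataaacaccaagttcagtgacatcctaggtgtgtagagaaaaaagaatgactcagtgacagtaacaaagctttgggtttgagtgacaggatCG
Tet2 intron 2: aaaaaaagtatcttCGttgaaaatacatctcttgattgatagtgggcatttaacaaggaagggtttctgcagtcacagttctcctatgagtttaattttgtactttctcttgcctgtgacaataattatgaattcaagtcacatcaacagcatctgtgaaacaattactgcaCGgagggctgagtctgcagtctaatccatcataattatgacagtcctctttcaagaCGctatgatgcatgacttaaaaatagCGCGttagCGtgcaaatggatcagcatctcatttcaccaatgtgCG
Tet2 downstream: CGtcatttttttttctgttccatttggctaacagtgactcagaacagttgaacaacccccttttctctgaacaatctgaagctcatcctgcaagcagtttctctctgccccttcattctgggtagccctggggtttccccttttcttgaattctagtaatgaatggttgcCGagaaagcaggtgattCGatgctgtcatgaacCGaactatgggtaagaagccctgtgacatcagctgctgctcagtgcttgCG

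For contrast, the RefSeq promoter of Tet2, which has no DMR, holds 57 CpGs in 300 bases (chr3:133544341-133544640, minus strand, GRCm38.p6), more than 99.8% of the 32851 promoters of the RefSeq table, whose median is 7.
Tet2 promoter: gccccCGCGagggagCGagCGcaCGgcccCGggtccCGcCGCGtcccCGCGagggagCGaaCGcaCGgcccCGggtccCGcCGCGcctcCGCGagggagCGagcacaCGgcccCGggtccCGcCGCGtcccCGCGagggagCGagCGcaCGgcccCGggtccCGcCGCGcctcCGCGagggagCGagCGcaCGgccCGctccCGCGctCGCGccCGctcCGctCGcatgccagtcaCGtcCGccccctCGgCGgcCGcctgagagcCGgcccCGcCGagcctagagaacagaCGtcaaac
The 3 stretches above hold 3, 7 and 5 CpGs, respectively. The AP-1 word TGANTCA, searched on both strands, occurred once in the intron 1 region (as tgactca) and once in the downstream region, and not in the intron 2 region. In windows of 300 bases about the centre it occurred in 30.7% of the 1983 hypo-methylated regions, 5.06% of the 890 hyper-methylated regions and 7.81% of promoters of the same length. The Runx word TGTGGTT and the T-box word GGTGTGA were found in none of the 3 regions, against 9.03% and 6.25% of hypo-methylated regions. A match is only a match of letters.

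In SmartSeq2, the cells with a sub-cluster in the study's cell annotation were used, 273 untreated and 251 treated, with 172559865 and 149084200 counts in all (median of 635257 and 599896 per cell, on 861 and 850 genes). A count is a read, since the method has no molecular identifiers, and levels are counts per 1000000 (CPM) of the summed counts of a group. Intervals are exact 95% Poisson or binomial intervals, which cover counting error only: cells share mice, and PCR copies are not independent molecules. The iNKT and T cell markers were read in 273 of 273 cells of untreated and 239 of 251 of treated mice. Markers of other cells differed between groups. Macrophage genes were at 0.0116 and 1793 CPM in sum (Lyz2 in 0 and 11 cells, with the Kupffer cell gene Clec4f at 0 in both groups), haemoglobin genes at 0.255 and 541 CPM (1 and 15 cells) and hepatocyte genes at 0 and 82.3 CPM (0 and 3 cells), B cell genes were near 0 in both, and the NK receptor gene Ncr1 was at 191 and 759 CPM (12 and 47 cells), with Eomes in 1 treated cell. Of the cells with reads of any of the 9 genes, 0 of 69 untreated and 9 of 59 treated cells also carried a macrophage, hepatocyte or haemoglobin read. Leaving out all such cells kept the sign of every one of the 9 ratios, and added Dnmt3b (log2 ratio of 1.08) to the genes past a fold of 2.

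The writers and erasers were read in few cells of either group. Any of the 9 was found in 69 of 273 untreated cells (25.3%, 20.2 to 30.9) and in 59 of 251 treated cells (23.5%, 18.4 to 29.2), and the intervals overlap. The highest share of a single gene was 5.98%, that of Tet2 in treated cells. Over the 15052 genes with at least 10 counts, the median gene was read in 2.20% of untreated and 1.99% of treated cells, so that rarity was common to most genes in these cells. A Tet gene was read in 31 untreated (11.4%, 7.85 to 15.7) and 28 treated cells (11.2%, 7.54 to 15.7), and Dnmt1, Uhrf1, Dnmt3a or Dnmt3b in 30 (11.0%, 7.54 to 15.3) and 25 (9.96%, 6.55 to 14.4). Reads of a writer and of a Tet gene or Tdg in the same cell were seen in 5 of 524 cells, 4 of them with a Tet gene. Thinned to 200000 counts per cell, with 267 and 243 cells deep enough, the share with any of the 9 was 23.0% and 21.8%.

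**Figure D1:**
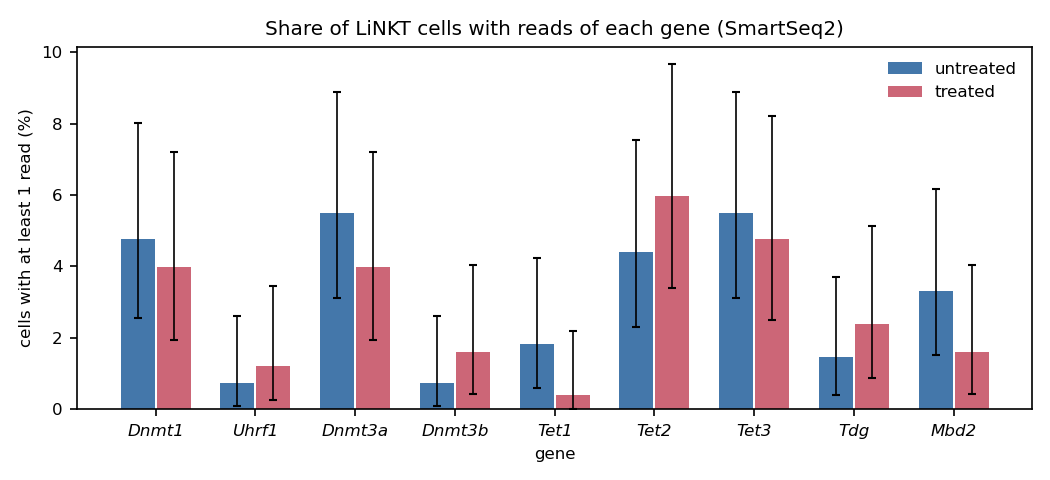
Share of cells with at least 1 read of each gene (%) in 273 untreated and 251 treated LiNKT cells; error bars are exact 95% binomial intervals, which cover counting error only. The intervals of both groups overlap for each of the 9 genes, and the highest share is that of Tet2 in treated cells (5.98%).

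Since each gene rests on so few cells, a group level can be decided by 1 cell, and levels are best read cell by cell. Relative to all genes, 20.1% of the 15052 were at least 2-fold higher and 17.2% at least 2-fold lower in treated cells, on the log2 scale with a prior of 1 CPM. Among the 11426 genes read in 1 to 30 cells, as the 9 were, these shares were 24.7% and 20.9%, or 45.6% in all. Of the 9, 3 were higher (Uhrf1, Tet2 and Tet3) and 1 was lower (Tet1), or 4 of 9 against 45.6% in either direction. Without the cell with most reads of the gene in each group, 1 was higher and 3 were lower. Cell names hold a digit, 1 or 2, taken here as the lane of the sequencing run, which no label states. Within lane 2, 3 were higher and 3 lower. Of the genes lower in lane 2, Uhrf1 and Tet1 had 0 treated reads there, against reads in 1 and 3 untreated cells, so that their direction was fixed, and Tet1 had 0 treated reads without its top cell. Their median log2 ratio was 0.54, against 0.02 over all genes tested.

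Dnmt1 (chr9:20907209-20959888) was the most abundant of the 9 per length, at 12.2 CPM per kb of exon in untreated and 7.74 in treated cells. It was read in 13 untreated cells (4.76%, 2.56 to 8.01), from 1 to 6272 reads with a median of 824, and in 10 treated cells (3.98%, 1.93 to 7.20), from 16 to 2881 reads with a median of 634.5. In sum this gave 90.1 CPM (88.7 to 91.5) without and 57.1 CPM (55.9 to 58.3) with treatment, for a log2 ratio of -0.65. In summed CPM, neither sub-cluster with Dnmt1 reads in both groups showed this fall. Untreated and treated levels were 109 and 136 CPM in sub-cluster 2 (12 of 228 and 2 of 61 cells). In sub-cluster 4 they were 1.06 and 46.6 CPM (1 of 43 and 7 of 133 cells). Treated sub-cluster 5 was at 9.03 CPM (1 of 57 cells). The treated level of sub-cluster 2 rests on 2 cells, with 1618 and 2881 reads. The untreated level of sub-cluster 4 rests on 1 cell with 30 reads. By share of cells, sub-cluster 2 was lower in treated mice (5.26% and 3.28%) and sub-cluster 4 higher (2.33% and 5.26%), with overlapping intervals. How far the make-up of the groups enters the summed ratio was not tested. The cells overlapped widely, from 1.17 to 10940 CPM in untreated and from 26.8 to 2874 CPM in treated mice, and the highest untreated cell held 40.3% of the untreated reads. Within lane 1 the levels were 118 and 66.9 CPM, and within lane 2 they were 36.8 and 35.9 CPM. In lane 2 the top cell held 58.0% of the untreated and 95.9% of the treated reads.

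Uhrf1 (chr17:56303321-56323486), the recruiter of Dnmt1 to replicating DNA, was read in only 2 untreated cells, with 316 and 1011 reads, and in 3 treated cells, with 3, 6 and 2459 reads. In sum this gave 7.69 CPM (7.28 to 8.12) without and 16.6 CPM (15.9 to 17.2) with treatment, for a log2 ratio of 1.01. A single treated cell held 99.6% of the treated reads, and this cell had reads on 5 of 16 proliferation genes. Without the 8 treated cells that had reads on at least 4 proliferation genes, the ratio was -3.09. The untreated cells used held 0 such cells, so that only treated reads could be lost, and 1 treated cell with 3 reads was left. Without the top cell of each group the ratio was -1.42, with treated cells of 3 and 6 reads left. The prior of 1 CPM sets the size of both values, and neither can show a fall with treatment. Over all cells of the tables, with the 11 untreated and 31 treated cells that have no sub-cluster, Uhrf1 was read in 2 of 284 untreated and 7 of 282 treated cells, with a log2 ratio of 2.01.

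The proliferation list as a whole was read in 17.9% of untreated and 21.5% of treated cells. In treated cells 10 of its 16 genes were at least 2-fold higher and 1 was lower, against 20.1% and 17.2% of all genes. Genes of the list differed: Mki67 was read in 0 untreated and 14 treated cells and Top2a in 0 and 12. Mcm6 was read in 22 and 29 cells, Mcm3 in 11 and 8, and Mcm2 in 10 and 4. In untreated cells 8 of the 16 had no read, in treated cells 0. Of the 8 treated cells with at least 4 of the 16 genes, 2 had reads of Dnmt1 and 2 had reads of Uhrf1. Over all cells of the tables, 2 untreated and 18 treated cells had reads on at least 4 of these genes, so that most such cells were among those without a sub-cluster.

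Of the de novo enzymes, Dnmt3a (chr12:3806007-3914443) was read in 15 untreated cells (5.49%, 3.11 to 8.90), from 1 to 1187 reads with a median of 66, and in 10 treated cells (3.98%, 1.93 to 7.20), from 1 to 1329 reads with a median of 66.5. Its summed level was 20.3 CPM (19.6 to 20.9) and 14.6 CPM (14.02 to 15.3), a log2 ratio of -0.44. It was -1.10 without the top cell of each group, -1.05 within lane 1 and -0.04 within lane 2. The median cell with reads was the same in both groups to within 1 read. Dnmt3b (chr2:153649450-153687730) was almost absent: it had 9 and 20 reads in 2 untreated cells, and 2, 12, 88 and 94 reads in 4 treated cells. With 0.168 CPM (0.113 to 0.241) and 1.31 CPM (1.14 to 1.51) it was the lowest of the 9 in untreated cells, also per length. Its log2 ratio of 0.99 lay just under the call, and 4 of 12 alternatives put it above.

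Tet1 (chr10:62804570-62908996) was read in 5 untreated cells, with 24, 621, 788, 977 and 2501 reads, and in 1 treated cell, with 81 reads. The shares were 1.83% (0.597 to 4.22) and 0.398% (0.0101 to 2.20). In sum this gave 28.5 CPM (27.7 to 29.3) without and 0.543 CPM (0.431 to 0.675) with treatment, for a log2 ratio of -4.25, the largest of the 9. Under the 12 alternatives the ratio lay between -5.47 and -2.59. In lane 1 the levels were 30.8 and 0.794 CPM, and in lane 2 they were 24.0 and 0 CPM. Lane 2 and the setting without the top cell of each group leave 0 treated reads, since 1 treated cell held them all, and their direction is thereby fixed. With 5 against 1 cells, the intervals of the shares overlap.

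Tet2 was read in 12 untreated cells (4.40%, 2.29 to 7.55), from 1 to 899 reads with a median of 10.5, and in 15 treated cells (5.98%, 3.38 to 9.67), from 1 to 4376 reads with a median of 120. The treated cells were thus about as many as the untreated ones, but 4 of them lay above the highest untreated cell in CPM. The highest treated cell stood at 6101 CPM, and the highest untreated cell at 1465 CPM. In sum this gave 12.3 CPM (11.8 to 12.8) without and 68.1 CPM (66.7 to 69.4) with treatment, for a log2 ratio of 2.38, the highest of the 9. The 4 treated cells above the highest untreated cell had 475 to 703 genes, against a treated median of 850. Treated cells with Tet2 reads had a median of 762 genes and those without 854, while untreated ones had 948.5 and 857. Of the 15 treated cells, 3 carried a macrophage, hepatocyte or haemoglobin read and 2 no iNKT or T cell marker, against 0 and 0 of the 12 untreated cells.

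The direction of Tet2 differed between the lanes, as read from the cell names. In lane 1 it was read in 6 of 184 untreated and 12 of 173 treated cells, at 11.3 and 96.8 CPM (log2 ratio of 2.99). In lane 2 it was read in 6 of 89 untreated and 3 of 78 treated cells, at 14.1 and 5.86 CPM (log2 ratio of -1.14). There, 1 cell held 86.6% of the untreated and 1 cell 97.1% of the treated reads, so that this direction rests on 1 cell per group. In lane 1 the top cells held 70.5% and 44.3%. Without the top cell of each group the levels were 7.08 and 38.9 CPM. By sub-cluster, Tet2 was read in 8 of 228 cells of untreated sub-cluster 2 and 4 of 43 of sub-cluster 4, and in 5 of 61, 7 of 133 and 3 of 57 treated cells of sub-clusters 2, 4 and 5, the last being the one that arises with treatment. The share in treated sub-cluster 5 was 5.26% (1.10 to 14.6) and in treated sub-cluster 4 also 5.26% (2.14 to 10.5). The summed levels of treated sub-clusters 2, 4 and 5 were 76.0, 85.7 and 23.6 CPM, and those of untreated sub-clusters 2 and 4 were 7.54 and 36.7 CPM. In treated sub-cluster 4, 1 cell held 4376 of 6762 reads.

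Tet3 (chr6:83362373-83459084) was read in 15 untreated cells (5.49%, 3.11 to 8.90), from 3 to 897 reads with a median of 204, and in 12 treated cells (4.78%, 2.49 to 8.20), from 1 to 4349 reads with a median of 24. The median cell was lower and the highest cell higher in treated mice. The summed level was 21.1 CPM (20.4 to 21.7) and 50.1 CPM (48.9 to 51.2), a log2 ratio of 1.21, and 58.3% of the treated reads came from 1 cell. Without the top cell of each group the levels were 15.9 and 21.0 CPM, and the log2 ratio of 0.38 no longer passed a fold of 2. By sub-cluster, Tet3 was read in 6 of 57 treated cells of sub-cluster 5 (10.5%, 3.96 to 21.5). In treated sub-clusters 4 and 2 it was read in 4 of 133 (3.01%, 0.825 to 7.52) and 2 of 61 cells (3.28%, 0.400 to 11.3). These intervals overlap.

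Tdg (chr10:82629828-82650799), the glycosylase downstream of the Tet enzymes, was read in 4 untreated cells, with 1, 56, 74 and 96 reads, and in 6 treated cells, from 8 to 145 reads. Its level was 1.32 CPM (1.15 to 1.498) and 2.37 CPM (2.13 to 2.64), a log2 ratio of 0.54. Mbd2 (chr18:70568189-70626131, ENSMUSG00000024513) was read in 9 untreated cells, from 3 to 1123 reads with a median of 279, and in 4 treated cells, with 225, 968, 1015 and 1365 reads. Its level was 18.2 CPM (17.6 to 18.8) and 24.0 CPM (23.2 to 24.8), a log2 ratio of 0.38: fewer treated cells carried more reads each. Per kb of exon Mbd2 was second to Dnmt1 in both groups, at 5.66 and 7.46 CPM, and in treated cells it lay close to Dnmt1 (7.74 CPM).

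**Figure D2:**
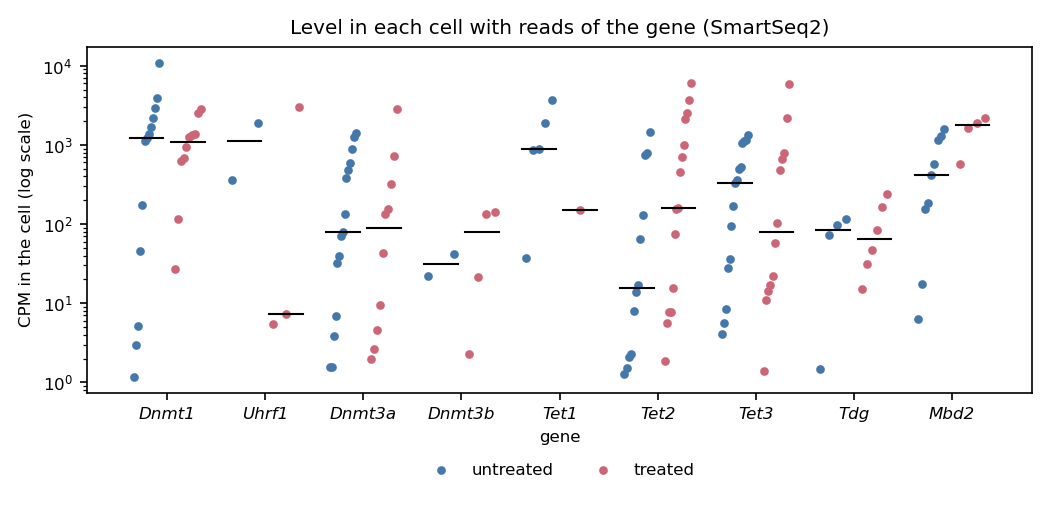
Level of each gene in every cell with reads of it (CPM of that cell, log scale; points, cells; black lines, medians) in untreated and treated LiNKT cells. Untreated cells with Dnmt1 spread from 1.17 to 10940 CPM, and 4 treated cells lie above the highest untreated cell for Tet2.

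Per length, the order of the summed levels in untreated cells was Dnmt1, Mbd2, Tet1, Uhrf1, Tet3, Dnmt3a, Tet2, Tdg and Dnmt3b, of which Tet1 and Uhrf1 (1.84 and 1.81 CPM per kb) as well as Tet3 and Dnmt3a (1.26 and 1.22) were closest. In treated cells it was Dnmt1, Mbd2, Tet2, Uhrf1, Tet3, Dnmt3a, Tdg, Dnmt3b and Tet1. Cells with any of the 9 had a median of 875 genes in the untreated and 857 in the treated group, against 854.5 and 849.5 in cells with none. Since no gene was read in 10% of cells, no gene of like pattern is named.

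Partners of the 9 genes lay on both sides. Lists are described by how many of their genes with at least 10 counts were 2-fold higher or lower in treated cells. The background given above is 20.1% and 17.2% over all genes, and 24.7% and 20.9% over genes read in 1 to 30 cells. Of 6 maintenance partners 2 were higher, the replication ligase gene Lig1 (4.59 and 18.7 CPM) and the remodeller gene Hells (0.151 and 2.62 CPM), and none was lower, with Usp7 and Pcna at log2 ratios of -0.52 and 0.07. Of 7 methyl-CpG readers 3 were higher and 1 was lower. Mbd4, which also encodes a glycosylase, was at 0 in untreated cells and at 31.5 CPM in 4 treated cells, Zbtb33 had a log2 ratio of 2.01, and Zbtb38 was lower (104.9 and 37.9 CPM, in 19 and 13 cells), with Zbtb4 next at 6.80 and 6.79 CPM. Of 7 Mbd2-NuRD partners none was higher and 2 were lower, Gatad2b (58.9 and 10.7 CPM, in 20 and 8 cells) and Hdac2 (16.2 and 2.52 CPM, in 6 and 3 cells). The highest log2 ratios of these were 0.49 (Hdac1) and -0.19 (Chd4).

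Of 9 base excision repair genes 3 were higher and 2 were lower. The scaffold gene Xrcc1 was at 108 CPM (12 cells) without and 5.40 CPM (4 cells) with treatment (log2 ratio of -4.09), and the ligase gene Lig3 at 25.9 and 10.3 CPM. The glycosylase genes Neil3 (11.0 CPM in 2 treated cells) and Smug1 (8.49 CPM in 3) were at 0 in untreated cells, and Parp1 was at 2.82 and 18.7 CPM. Of 5 Gadd45 and deaminase genes Gadd45a (0 and 2.07 CPM) and Apobec3 (49.5 and 101 CPM) were higher and Apobec1 (14.4 and 4.38 CPM, in 1 and 3 cells) was lower, with Gadd45g next at a log2 ratio of 0.39. Of 7 methyl donor and cofactor genes only Cxxc5, which encodes a CpG-binding partner of Tet2, was past 2-fold (7.24 and 27.5 CPM, in 1 and 7 cells), followed by Mat2b at a log2 ratio of 0.47, with Ahcy and Idh1 lowest at -0.33 and -0.30. Dnmt3l and Dppa3 had no read in either group, and Trim28, the other de novo partner, had a log2 ratio of 0.41. The medians were 0.39 for maintenance partners, 0.51 for readers, -0.14 for base excision repair, 0.59 for Gadd45 and deaminases, -0.21 for donors and cofactors and -0.46 for Mbd2-NuRD partners.

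In the bisulfite data, the deposited table lists 2873 DMRs between untreated and treated LiNKT cells, with lower methylation in treated cells at 1983 of them (69.0%, hypo-methylated) and higher at 890 (hyper-methylated). The authors called these regions by their own test between the groups, from these same data. Differences at the CpGs within a region therefore follow largely from its selection and are given as description only. Each group has 1 value per site, without read depth, so that the precision of a value is unknown. In sorted bulk cells a change in all cells and a change in the make-up of the cells cannot be told apart. On chromosome Y, 4 regions had values in both groups although the untreated mice are described as female. Among the 9 genes, only Tet2 and Mbd2 had a DMR within 50 kb of the gene body. There were 4, all hypo-methylated, and no hyper-methylated region lay within 50 kb of any of the 9. Hypo-methylated regions lay within 50 kb of 11.3% of the 21951 protein-coding genes (14.5% of those with bodies as long as those of the 9), and hyper-methylated ones of 6.92% (7.94%). Of the 9, only Tet2 had hypo-methylated DNA inside its body, as had 4.05% of protein-coding genes (5.77% at like length), and it had 2, as had 1.04% (1.22%). None of the 9 had a hyper-methylated region in the body, against 2.58% (3.65%).

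The intron 1 region of Tet2, centred 29.8 kb downstream of the start site, had a methylation level of 88.2% in untreated and 29.8% in treated cells. Its 10 CpG cytosines, counted on both strands, lay between 75% and 100% in untreated and between 15% and 74% in treated cells, and 10 of 10 were lower. The mean over sites was 87.7% ± 6.70 (SD over sites) and 31.9% ± 19.0. The lowest treated value was 15%, and the cytosine at the edge of the region nearest to the start site of the gene was at 74%.

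The intron 2 region, centred 48.2 kb downstream of the start site, differed less, at 93.0% and 66.1%. Its 18 CpG cytosines had means of 94.6% ± 4.96 and 69.8% ± 17.8 (SD over sites), and 17 of 18 were lower in treated cells. Treated values ran from 31% to 95%, and the lowest, 31% and 34%, were those of both strands of the CpG nearest to the start site of the gene. The downstream region, 26.4 kb past the 3′ end of Tet2, was at 88.6% and 31.7%. Its 10 CpG cytosines were at 88.2% ± 6.18 and 31.7% ± 13.3, and 10 of 10 were lower, the treated values lying between 14% and 53% and the untreated between 79% and 98%. No other protein-coding gene lay within 50 kb of any of the 3 regions.

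The region near Mbd2 lay 5.75 kb past its 3′ end (chr18:70631881-70632338) and was at 85.1% and 32.4%. Its 10 CpG cytosines were at 84.2% ± 4.13 and 35.7% ± 15.4, with untreated values between 76% and 89%, treated values between 20% and 60%, and 10 of 10 lower. At 3 of the 4 regions the groups did not overlap at any CpG, and in the intron 2 region of Tet2 they did. Since the regions were selected for such differences, this is no separate support for them. Over all hypo-methylated regions the medians were 83.2% and 38.0%, so that 3 of the 4 were above the median in untreated and below it in treated cells, whereas the intron 2 region of Tet2 ended above it.

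The means of cytosines outside CpGs were near 0 in these regions. They were 1.53% and 1.68% over 115 sites in Tet2 intron 1, 1.39% and 1.93% over 99 sites in intron 2, 1.65% and 2.00% over 57 sites in the downstream region, and 2.74% and 1.97% over 118 sites near Mbd2. Single cytosines departed from these means. In Tet2 intron 2, 1 was at 33% in untreated and 0% in treated cells, 1 at 0% and 17%, 1 at 0% and 11%, and 1 at 11% and 0%. The mean near Mbd2 holds 1 cytosine at 83% in untreated and 30% in treated cells, levels like those of the CpGs beside it. The context was read from the reference genome, which is not that of NOD mice.

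**Figure D3:**
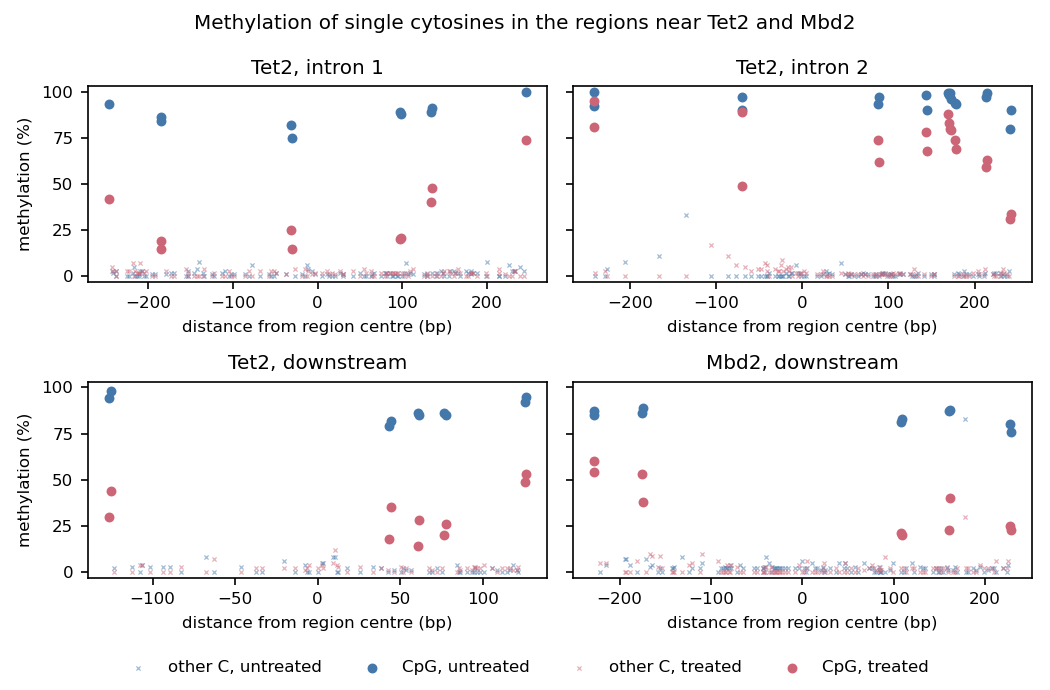
Methylation of each cytosine (%) by distance from the centre of the region (bp) in the 3 hypo-methylated regions of Tet2 and the one near Mbd2; circles, CpG sites; crosses, other cytosines; blue, untreated; red, treated. CpGs of treated cells lie between 14% and 74% in the intron 1 and downstream regions of Tet2 and the Mbd2 region, and between 31% and 95% in Tet2 intron 2, while most other cytosines lie near 0 in both groups.

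The other 7 genes had no DMR within 50 kb. The nearest hypo-methylated region was 94.7 kb away for Dnmt1, 110 kb for Tet3, 155 kb for Uhrf1, 266 kb for Tet1, 307 kb for Dnmt3b and 346 kb for Tdg, and 13170 kb for Dnmt3a. A hyper-methylated region lay nearer for Dnmt3a and Tdg, at 134 and 239 kb. Among the partner genes, Zbtb38 had a hypo-methylated region in its body, and Pcna, Neil2, Apobec1, Hdac1 and Mta2 were among those with one within 50 kb. Hyper-methylated regions lay within 50 kb of Mbd3, Xrcc1, Cxxc5 and Chd4.

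In the multiome, both groups are pooled in 1 fragment table of 167180637 fragments, and barcodes end in 1 or 2. No label says which ending belongs to which group, so that the endings are described as such and neither is assigned. Barcodes with at least 1000 fragments numbered 8565 with ending 1 and 7237 with ending 2 (median of 7104 and 8591 fragments), and 100 barcode sequences occurred with both endings. Insertions, the ends of fragments, were divided by the total of their ending and are given per 1000000 insertions (IPM). Log2 ratios and calls between endings add a prior of 0.01 IPM. No doublets were removed, and barcodes are counted as nuclei. The endings differed where methylation differed: of 1384 hypo-methylated regions with at least 100 insertions 85.0% were at least 1.5-fold higher with ending 2, and of 771 hyper-methylated ones 63.6% were at least 1.5-fold lower, with 0.434% and 1.69% past that fold the other way.

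The promoters of the 9 genes, within 2 kb of the start site, differed little between endings. None was past a fold of 1.5, against 12.0% of 16305 promoters higher and 2.56% lower with ending 2. The largest differences were those of Tet2, at 30.3 IPM (29.5 to 31.2) with ending 1 and 35.0 (34.1 to 36.002) with ending 2, and of Uhrf1, at 55.2 (54.0 to 56.3) and 63.0 (61.7 to 64.3). The log2 ratios were 0.21 and 0.19, within the range of -0.38 to 1.09 between the 5th and 95th percentiles of all promoters. Tdg (59.4 and 60.03), Mbd2 (49.3 and 48.4), Dnmt3a (24.8 and 24.4), Dnmt3b (20.7 and 21.5) and Dnmt1 (19.5 and 20.4) differed by at most 0.06 on the log2 scale. Nuclei with an insertion at the Tet2 promoter made up 21.6% and 26.1%, or 5.99% and 6.81% when each nucleus was thinned to 2000 fragments.

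The level of a promoter, and for some genes its ratio between endings, depended on the start site and the window used. The outermost start in GENCODE of Tet1, Tet3 and Dnmt1 had 0.449, 7.17 and 19.5 IPM with ending 1. The RefSeq start with most insertions, 21.7, 17.4 and 7.27 kb from it, had 7.52, 29.5 and 71.2, and 7.66, 33.0 and 70.1 with ending 2. Within 500 bp of the GENCODE start, Uhrf1 (8.09 and 12.7 IPM) and Tet3 (0.479 and 0.769, from 78 and 115 insertions) were past a fold of 1.5, against 9.38% of 13676 promoters higher and 2.55% lower in that window. Tet2 had 7.33 and 10.7 IPM there, a log2 ratio of 0.55. With the RefSeq starts, none of 8 genes was, against 13.0% of 22714 such starts higher and 4.07% lower. At the RefSeq start of Dnmt3a 85.7 kb into the gene, insertions were lower with ending 2 (19.9 and 16.8 IPM, log2 ratio of -0.24).

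The hypo-methylated regions of Tet2 and Mbd2 differed between endings by larger folds than the promoters. The downstream region of Tet2 had 13 insertions with ending 1 and 511 with ending 2, which is 0.315 IPM per kb (0.168 to 0.538) and 13.4 (12.3 to 14.7), a ratio of densities of 42.7-fold. The intron 1 region had 37 and 334, or 0.460 (0.324 to 0.635) and 4.52 (4.05 to 5.03), 9.82-fold higher. The region near Mbd2 had 33 and 293, or 0.443 (0.305 to 0.622) and 4.28 (3.7999 to 4.79), 9.65-fold higher. All 3 with at least 100 insertions were thus higher with ending 2, as were 85.0% of such regions.

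The intron 2 region of Tet2, which kept most of its methylation, had only 8 and 17 insertions, or 0.101 (0.0437 to 0.199) and 0.234 (0.136 to 0.374) IPM per kb, and these intervals overlap. With ending 2 the density of the region was 33.9 times that of the 5 kb on either side for Tet2 downstream, 9.27 times for Tet2 intron 1, 9.86 times for Mbd2 and 1.58 times for Tet2 intron 2. With ending 1 these ratios were 5.07, 1.21, 1.48 and 0.871. Among all hypo-methylated regions, the downstream region of Tet2 stood above 88.4% with ending 2, and the intron 2 region above 8.47%. The intron 1 region stood above 59.8% and the Mbd2 region above 58.0%, near the middle of such regions.

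**Figure D4:**
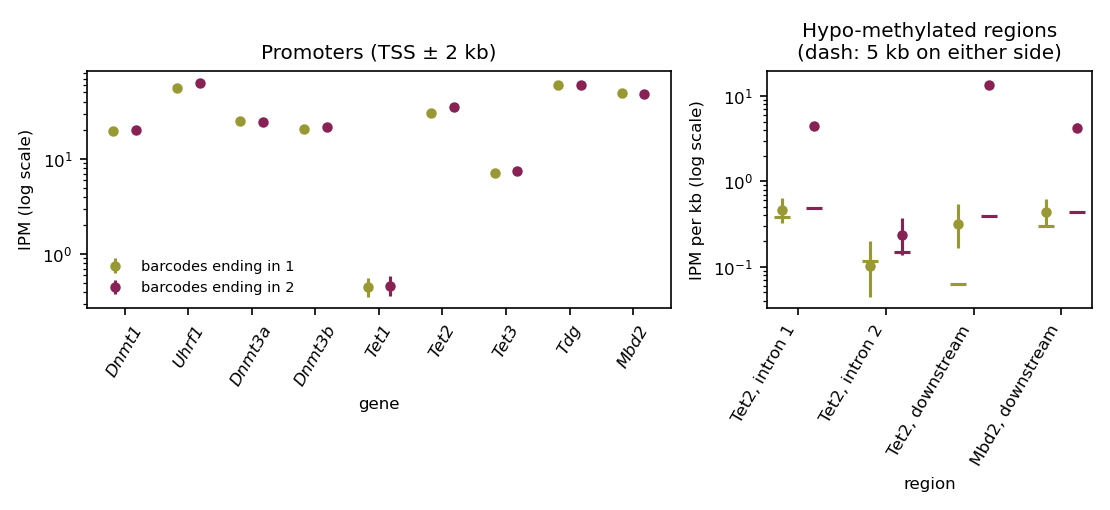
Left, IPM within 2 kb of the start site of each gene; right, IPM per kb in the 4 hypo-methylated regions (points, with exact 95% Poisson intervals) and in the 5 kb on either side (dashes), both on log scales and for barcodes ending in 1 and in 2. Promoters lie at nearly the same height in both endings, and 3 of the 4 regions are 9.65-fold to 42.7-fold higher with ending 2.

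Along Tet2 as a whole, 22 bins of 1 kb in the gene body had at least 100 insertions, of which 9 were at least 1.5-fold higher and 1 was lower with ending 2, against 13.9% and 11.6% of 278123 such bins of the genome. Bins of a gene share its locus and are not independent. The bin of the intron 1 region was the most different, at 0.344 and 2.73 IPM (log2 ratio of 2.95). A bin centred 18.5 kb upstream of the start site, which is no DMR, had 0.320 and 2.05. Bins at 18.5 kb (1.11 and 1.18) and 34.5 kb (1.48 and 1.10) into the gene had insertions with both endings. The whole gene body was at 47.5 and 58.0 IPM.

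**Figure D5:**
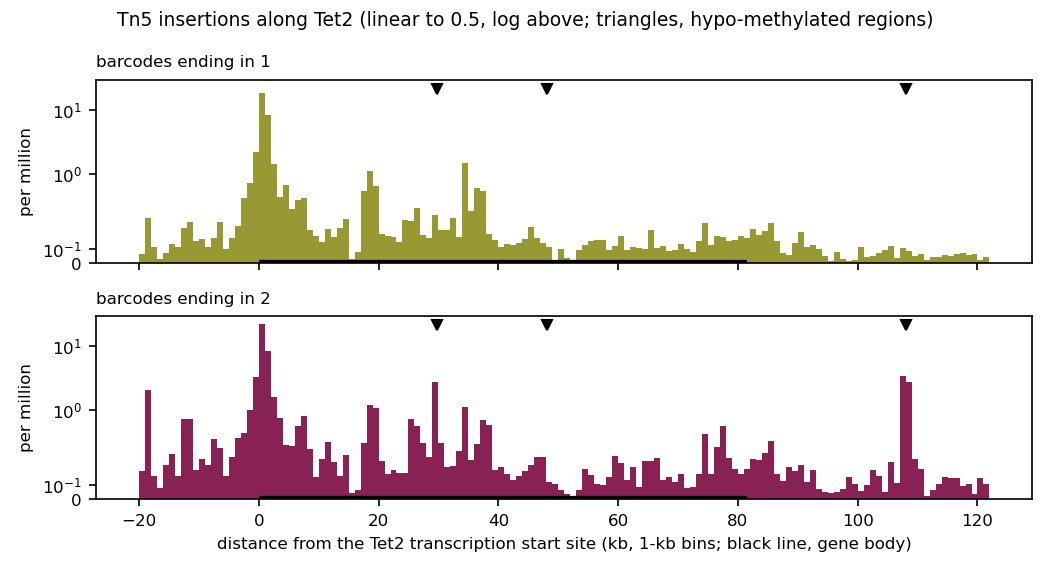
Tn5 IPM in 1-kb bins along Tet2, by distance from its start site (kb), for barcodes ending in 1 (top) and 2 (bottom), on a scale that is linear to 0.5 and logarithmic above; triangles mark the hypo-methylated regions and the black line the gene body. The bin of the start site is alike in both (19.0 and 22.3), and the bins of the intron 1 and downstream regions are higher with ending 2 (0.344 and 2.73, 0.104 and 3.46).

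Other genes showed differences inside the body without a DMR near. In Tet3, 21 of 81 bins were lower and 2 were higher with ending 2, the largest at 37.5 kb from the outer start site (8.35 and 2.51 IPM), and the whole body was at 206 and 170. In Dnmt3a, 15 of 98 bins were higher and 2 were lower, close to the genome's 13.9% for the former. In Tdg, 3 of 8 bins were higher, led by the one at 3.5 kb (0.584 and 2.76). Tet1 had 5 of 23 bins lower and none higher, and Uhrf1 had none of 19 past the fold. Dnmt1, Dnmt3b and Mbd2 had at most 4 bins past it in either direction.

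Set side by side, Tet2 had 3 hypo-methylated regions, 2 of which had 9.82-fold and 42.7-fold more insertions with ending 2. Its promoter differed by a log2 ratio of 0.21 within 2 kb and 0.55 within 500 bp. Its RNA was higher in treated cells in lane 1 and lower in lane 2, where 1 cell held most reads of each group. Mbd2 had 1 hypo-methylated region and a log2 ratio of RNA of 0.38. Tet1, read in 5 untreated cells and 1 treated cell with overlapping intervals of the shares, had no DMR within 50 kb and 0.449 and 0.468 IPM at its outermost GENCODE start, or 7.52 and 7.66 IPM at its RefSeq start. For the shares of cells with Dnmt1, Dnmt3a or a Tet gene the intervals overlap, which cover counting error only, and no test between groups was possible. Whether the excess of hypo-methylated regions relates to the level of any of the 9 was not tested.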

How the data were processed

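SmartSeq2 raw counts, bisulfite methylation fractions and multiome fragments of LiNKT cells were used. The authors deposited the counts as reads per gene and cell, without molecular identifiers. The authors deposited methylation as a fraction per cytosine and a mean fraction per region, 1 value per group, after mapping with BSMAP and calling of DMRs with metilene. How replicates were merged is not given in the sources used here. The deposited q-value of each region, the authors' own comparison, served only as a filter in an alternative and is not printed. The authors deposited fragments with counts of read pairs per barcode from Cell Ranger ARC, whose positions are shifted for Tn5.

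Counts were summed per group over annotated cells and scaled to CPM, and log2 ratios used a prior of 1 CPM. A gene was called at a 2-fold difference if it had at least 10 counts in sum. Both ends of each fragment were counted for barcodes with at least 1000 fragments, and called at 1.5-fold from 100 insertions, with a prior of 0.01 per scaled unit. No doublet removal was applied. Start sites were the outermost in GENCODE M21, and promoters within 2 kb of them. Sequences and promoters are those of RefSeq and GRCm38.p6. Of the 9 genes, 8 had a RefSeq promoter in the table used, and Mbd2 is named only. With 1 sample per group there was no test. The 9 genes and all lists were chosen with earlier results of these data known. Partner genes were named as the 2 highest and 2 lowest log2 ratios of their list, and further genes and motifs were named after their values were seen. Results on some genes of the lists are not reported here. Scripts were tested on simulated data. Python 3.11.15, numpy 2.4.6, pandas 2.3.3, scipy 1.17.1 and R 4.3.3 with edgeR 4.0.16 (TMM factors only) were used.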

Additional observations from a re-analysis of the deposited data

How the results depend on the processing

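The 4 genes past a fold of 2 became 2 with the mean of single-cell CPM, and 3 to 6 under the other alternatives. Their split of 3 higher and 1 lower turned to 1 higher and 3 lower without the top cell of each group, and to 3 and 3 within lane 2. Uhrf1 turned to -3.09 without cells with at least 4 proliferation genes, -1.42 without the top cell of each group and -2.65 within lane 2. The first removed treated cells only and left 1 treated cell with 3 reads. The second left treated cells with 3 and 6 reads, and lane 2 had 0 treated reads. The prior thus sets the size of each of these values. Tet2 turned to -1.14 within lane 2, where 1 cell held 86.6% of the untreated and 1 cell 97.1% of the treated reads. The share of cells with any of the 9 was 20.1% (untreated) with at least 5 reads, and 19.0% (untreated) and 17.9% (treated) with at least 10 reads. The 4 DMRs became 2 within 50 kb of the start site and 0 with at least 20 CpG cytosines counted on both strands. Within 500 bp of the start site, 2 promoters (Tet3 and Uhrf1) passed a fold of 1.5, in place of 0. Leaving out cells with reads of other cell types and the use of RefSeq starts were chosen after seeing the data. No paired analysis was possible because each group is 1 sample, and no replicate could be left out for the same reason. Read depth is unknown for the methylation values, and single-cell levels rest on few cells per gene.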
